A study of Rattus norvegicus with 20 samples.

Results

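miR-9a and miR-124 were described by both arms of their hairpins, rno-miR-9a-5p, rno-miR-9a-3p, rno-miR-124-3p, and rno-miR-124-5p, which were 4 of the 617 miRNAs with reads in any library. They were chosen by name, and every read assigned to 1 of these names was summed in each library. All 4 were among the 500 miRNAs with at least 10 counts in at least 5 libraries, which entered the tests. Small RNA was sequenced from the adBNST, the anterodorsal part of the bed nucleus of the stria terminalis within the extended amygdala, in 20 adult Sprague-Dawley rats. There were 5 rats in each of 4 groups: group housed (GH) males, socially isolated (SI) males, GH females, and SI females. SI rats lived alone and GH rats with same-sex littermates from weaning on postnatal day 21, for 6 weeks, and all were run on the elevated plus maze before the tissue was taken. Each library is the tissue of 1 rat, punched from the frozen brain on both sides, so it holds neurons, glia, and vessels, and the labels do not tie rats to litters. In such tissue, fewer cells of a type and less RNA per cell cannot be told apart.

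miRNAs are cut from hairpin transcripts, first by DROSHA and then by DICER, and 1 arm of the resulting duplex usually stays in Argonaute as the guide while the other, the passenger, is degraded. The guide finds its targets mainly with its seed, bases 2 to 8 counted from the 5' end, so a shift of the first base changes the seed, whereas changes at the 3' end do not. miR-9 acts in neural progenitors and neurons, and both of its arms are known to act as guides. miR-124 is the best known miRNA of differentiated neurons, where its 3p arm is the guide and represses genes of other cell types, and its 5p arm is the passenger. IsomiRs are reads of a miRNA that differ from the reference form at an end, by nucleotides added after transcription, or by a mismatch.

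The sequences of miR-9a are shown because all 3 of its hairpins give the same mature arms and because its reads turn on the first base. Of the 4 miRNAs, 2 were matched in the RefSeq table (assembly GRCr8), both of them arms of miR-9a, and the coordinates given here are those of that assembly. The mature arms have their seeds in capitals:
rno-miR-9a-5p: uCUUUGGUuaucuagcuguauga
rno-miR-9a-3p: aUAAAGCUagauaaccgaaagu
The hairpins, all on the plus strand, have both mature arms in capitals. Mir9-3 lies at chr1:142849400-142849489 and overlaps the annotated genes Mir9-3hg and Mir3597-3. Mir9-2 lies at chr2:15933292-15933378 and overlaps Mir9-2hg and Mir3597-2, and Mir9-1 lies at chr2:175974971-175975059 and overlaps LOC100911992 and Mir3597-1.
Mir9-3: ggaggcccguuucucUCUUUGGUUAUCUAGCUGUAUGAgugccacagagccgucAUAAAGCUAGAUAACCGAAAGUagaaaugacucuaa
Mir9-2: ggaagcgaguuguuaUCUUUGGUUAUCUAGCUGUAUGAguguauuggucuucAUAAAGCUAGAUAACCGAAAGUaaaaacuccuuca
Mir9-1: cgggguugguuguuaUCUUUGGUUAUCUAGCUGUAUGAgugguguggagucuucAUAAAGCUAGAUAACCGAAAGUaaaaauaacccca
None of the 492 tested miRNAs whose seed could be read from the reads shared bases 2 to 8 with any of the 4 miRNAs other than that miRNA itself, and none shared the seed of their shifted starts described next.

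Total counts per library ranged from 3436585 to 11406397, with a median of 6717848. Some libraries need to be known before the results. The labels of the 2 SI rats numbered 17 and the names of their deposited tables give opposite sexes, and the labels were followed. SI female 16 stood apart, with 367 miRNAs listed against 406 or more in the other libraries. All 14 neuron-enriched markers were detected, with only miR-551b-3p at 0 in some libraries, and their summed level, in CPM (a miRNA's counts scaled to a common library total), was 74194 to 100031 for the males in GH, 76191 to 98130 for those in SI, 60112 to 104082 for the females in GH, and 80121 to 131695 for those in SI. The 4 vascular markers, led by miR-143-3p, gave a sum of 10470 to 15178 CPM among GH males against 4308 to 7208 among SI males, with no overlap. Among GH females the sum was 11376 to 21974 CPM and among SI females 2130 to 14870, the lowest of these being SI female 16. The sums of the other marker lists overlapped between GH and SI males. How many single miRNAs separated the male groups was not counted. Of the 500 miRNAs tested, 23% had an unadjusted p under 0.05 in males (edgeR). The sum of the 3 oligodendrocyte markers was highest in SI female 16, at 6828 CPM. That sum was miR-219a-2-3p alone, with miR-338-3p and miR-219a-5p at 0 in this rat. The choroid plexus and epithelial list, with 4 of 5 markers tested and led by miR-204-5p, reached 18201 CPM in 1 SI male against at most 5233 in every GH library. The 2 blood markers stayed at or below 31.7 CPM and were at 0 in some libraries, and the 6 immune and microglial markers summed to 499 to 1344 CPM.

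miR-9a-5p was the most counted miRNA of the adBNST in GH rats. It held 7.43% ± 1.55 (SD, n = 20) of all miRNA counts in a library, with a range of 3.37% to 9.57%. miR-9a-3p held 2.02% ± 0.82 and ranked 11 of 617 in GH rats, and miR-124-3p held 1.92% ± 0.67 and ranked 12. miR-124-5p was rare, with 28 to 302 counts in a library and a rank of 284. The 4 together took 4.36% to 15.3% of the miRNA counts, and the lowest of these shares of miR-9a-5p, miR-9a-3p, and miR-124-3p were those of SI female 16. Ligation and amplification differ between small RNAs, so an order of shares is an order of reads.

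The reads of miR-9a-5p began almost always at the annotated base. That start held 92.9% ± 0.64 (SD, n = 20) of its reads, and a start 1 base further in held 5.59% ± 0.52. Most of its variation was at the 3' end, where 61.2% ± 1.46 of reads were shorter than the reference and 30.5% ± 1.07 had the exact reference form. The most counted forms are shown with bases 2 to 8 in capitals, since they share 1 seed and differ only in their last bases, and in T as the files write them:
miR-9a-5p, 23 nt, 30.5% of reads: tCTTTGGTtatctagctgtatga
miR-9a-5p, 21 nt, 26.4% of reads: tCTTTGGTtatctagctgtat
miR-9a-5p, 22 nt, 23.99% of reads: tCTTTGGTtatctagctgtatg
Nucleotides added to the 3' end were present in 10.8% ± 0.62 of its reads, more often U alone (6.69%) than A alone (3.37%).

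miR-9a-3p was split between a pair of starts. The annotated base opened 66.4% ± 2.42 (SD, n = 20) of its reads and the next base 33.1% ± 2.41, so that in every library a large part of the reads had a seed moved by 1 base. The exact reference form held 52.6% ± 2.07. The 3 most counted forms, with bases 2 to 8 in capitals to show the shift, were:
miR-9a-3p, annotated start, 52.6% of reads: aTAAAGCTagataaccgaaagt
miR-9a-3p, start +1, 14.8% of reads: tAAAGCTAgataaccgaaagta
miR-9a-3p, start +1, 10.8% of reads: tAAAGCTAgataaccgaaagt
The start and the end went together. Of the reads beginning at the next base, 62.7% ± 5.08 ran past the annotated 3' end, against 13.7% ± 1.07 of those with the annotated start. In all, 69.2% ± 1.27 of miR-9a-3p reads were 22 nt long. All 3 hairpins continue with an A after the annotated 3' end, so a templated and an added A cannot be told apart there. The lowest share of the shifted start, 24.8%, was in SI female 16, which had 18778 reads of miR-9a-3p, and the other 19 libraries held more than that.

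miR-124-3p was read as its exact reference form in only 2.87% ± 0.85 (SD, n = 20) of its reads. Exactly 1 base was missing at the 3' end in 74.8% ± 3.87 of reads, and 91.7% ± 2.47 were shorter at the 3' end by 1 base or more. The most counted form, of 19 nt with the annotated start, held 40.7% ± 2.54 of reads, and the next, of 20 nt and starting 1 base upstream, held 28.8% ± 2.17. All starts 1 base upstream together held 43.9% ± 2.40, with a range of 38.3% to 47.4%, and the annotated start 55.3% ± 2.35. As for miR-9a-3p, reads with 2 seeds were present in every library, here of similar abundance. Added nucleotides, found on 11.0% ± 2.35 of the reads, were A alone more often (8.42%) than U alone (1.57%), the reverse of the order in miR-9a-5p. Forms of 18 nt, the shortest listed here, held 6.86% ± 1.79 of its reads, and shorter ones were not analysed here. miR-124-5p began at the annotated base in 90.5% of its 3267 reads, but its make-up in single libraries rests on as few as 28 reads.

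**Figure D1:**
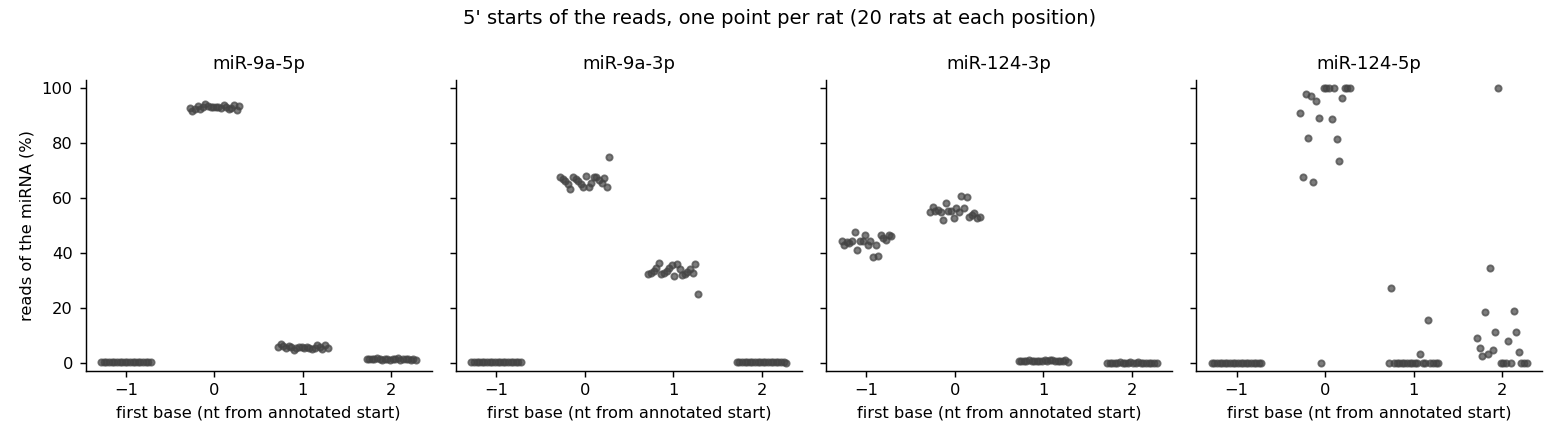
Share of reads (y axis, percent of the reads of the miRNA) by first base (x axis, nucleotides from the annotated start, negative values upstream), with 1 point per rat for each of 20 rats. miR-9a-5p sits at the annotated start in every rat, miR-9a-3p is split between the annotated base and the next, miR-124-3p between the annotated base and the one upstream, and miR-124-5p, with at most 302 reads in a library, scatters.

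Of the 3 genes of miR-9a, only Mir9-3 was told apart from the others, by reads that extend beyond the mature arms. These reach the base before miR-9a-5p or the second base after miR-9a-3p, where Mir9-3 differs from both Mir9-1 and Mir9-2. Mir9-1 and Mir9-2 were not told apart from each other. An added A after miR-9a-3p would be read as Mir9-1 or Mir9-2. Such reads were rare. For miR-9a-5p they were 0.0826% of reads, 3704 with the base of Mir9-3 and 4240 with that of Mir9-1 and Mir9-2, and Mir9-3 held 46.0% ± 13.3 (SD, n = 20) of them per library. For miR-9a-3p they were 0.303% of reads, and Mir9-3 held 37.9% ± 13.2 over the libraries with such reads, which leaves out SI female 16. Mature reads that end where annotated cannot be assigned to a gene.

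Levels by rat are given as log2 CPM, after TMM normalization and with a prior count of 1. For miR-9a-5p, the GH males were at 16.01, 15.97, 16.37, 16.53, and 16.34. The SI males were at 16.54, 16.32, 16.52, 15.66, and 16.34. These groups overlapped, and only SI male 17, the lowest, fell below every GH male. The GH females were at 15.75, 16.17, 16.001, 16.06, and 15.91. The SI females were at 16.31, 16.31, 15.92, 16.50, and 15.31, with 3 of them above every GH female and SI female 16 below. The log2 fold change of SI over GH was 0.05 ± 0.20 (SE) in males and 0.14 ± 0.20 in females, which is smaller than its error in both.

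For miR-9a-3p, the GH males were at 14.01, 13.98, 14.48, 14.83, and 14.90. The SI males were at 13.99, 13.92, 14.49, 13.14, and 14.14, of which 2 were below every GH male and the others lay within their range. The GH females were at 13.83, 14.54, 14.81, 13.96, and 14.40. The SI females were at 14.62, 14.87, 13.90, 14.26, and 11.82. SI female 16, the lowest of all, was followed by the others at levels like those of the GH females. The log2 fold change was -0.49 ± 0.36 in males (adjusted p = 0.46, edgeR) and -0.16 ± 0.36 in females (adjusted p = 0.82, edgeR).

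For miR-124-3p, the GH males were at 13.89, 14.40, 14.23, 14.73, and 14.65. The SI males were at 13.90, 13.89, 14.09, 13.49, and 13.48. The SI males thus lay in the lower part of the GH range or below it, with 2 of 5 below every GH male. The GH females were at 13.97, 14.64, 14.59, 14.13, and 14.35. The SI females were at 14.25, 14.76, 14.02, 14.28, and 13.02, with 1 above every GH female and SI female 16 below. In males the log2 fold change was -0.62 ± 0.24 (adjusted p = 0.12, edgeR). In females it was -0.19 ± 0.24 (adjusted p = 0.70, edgeR), and averaged over the sexes it was -0.41 ± 0.17 (adjusted p = 0.10, edgeR).

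For miR-124-5p, the GH males were at 4.97, 4.63, 4.47, 4.93, and 5.21. The SI males were at 4.02, 5.21, 4.01, 1.98, and 2.93, so that 4 of 5 were below every GH male and 1 was just above. The GH females were at 4.55, 5.35, 4.62, 5.43, and 4.34. The SI females were at 5.03, 4.85, 3.53, 5.39, and 4.58, mostly within the GH range. The log2 fold change was -0.85 ± 0.50 in males (adjusted p = 0.32, edgeR) and -0.13 ± 0.50 in females (adjusted p = 0.88, edgeR).

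**Figure D2:**
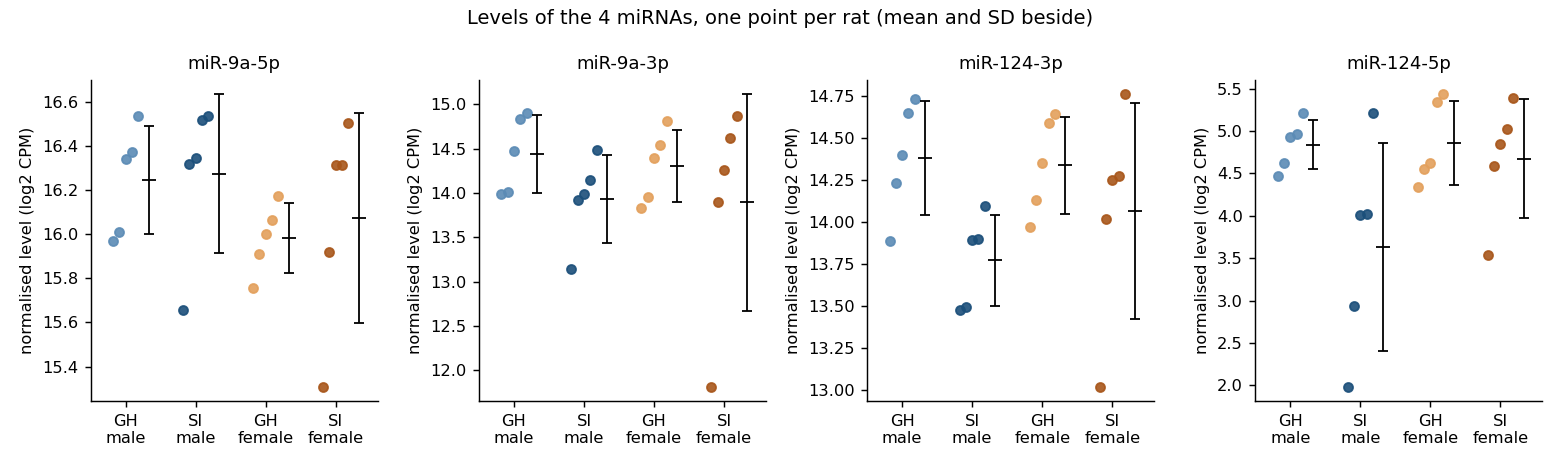
Normalised level (y axis, log2 CPM) of the 4 miRNAs in the 4 groups (x axis), with 1 point per rat and the mean and SD of 5 rats beside the points. Most SI males lie low for miR-124-3p and miR-124-5p, the groups overlap for miR-9a-5p, and 1 SI female, rat 16, lies below the rest for miR-9a-3p and miR-124-3p.

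None of the 4 miRNAs passed an adjusted p of 0.05 in any of the 5 comparisons by edgeR's quasi-likelihood test. Of the 500 miRNAs tested, 4% passed for housing in males, 0.4% for housing in females, 17.6% for housing averaged over the sexes, 0.4% for the interaction of housing and sex, and 0% for females against males in GH, where 12 miRNAs had an unadjusted p under 0.05 and DESeq2 called 3. miR-124-3p alone had an unadjusted p under 0.05, in males and averaged over the sexes. The interaction was 0.43 ± 0.34 for miR-124-3p and 0.10 ± 0.29 for miR-9a-5p, with adjusted p-values of 0.83 to 0.96 for the 4 miRNAs (edgeR), and between GH females and GH males all 4 had an adjusted p of 0.996 (edgeR). The call for miR-124-3p depended on the fit. Averaged over the sexes it passed with DESeq2 (adjusted p = 0.048, log2 fold change -0.42), where 33.2% of the 379 miRNAs with an adjusted p did, with miRNAs of at least 10 counts in every library (adjusted p = 0.045, edgeR), where 33.2% of 307 did, and without SI female 10 (-0.51, adjusted p = 0.033, edgeR), where 23.4% did. In males it passed when only the male groups were fitted (-0.65, adjusted p = 0.016, edgeR), where 18.5% of 453 miRNAs did, and without SI female 16 (-0.66, adjusted p = 0.020, edgeR), where 14.6% did. With the SI rats numbered 17 exchanged it was -0.52 in males (adjusted p = 0.24, edgeR), and without SI female 16 it was 0.02 in females.

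The reads of a library can also be compared with each other, which needs no normalization, and 3 ratios of raw counts were tested in this way. miR-9a-5p outnumbered miR-124-3p by a median of 3.997-fold over the 20 rats, and that margin was wider in SI rats. In GH males the ratio was 4.36, 2.97, 4.41, 3.48, and 3.22, and in SI males 6.22, 5.39, 5.36, 4.48, and 7.30. Every SI male was above every GH male, although the gap between 4.41 and 4.48 was small. In GH females the ratio was 3.45, 2.89, 2.67, 3.81, and 2.95, and in SI females 4.18, 2.94, 3.74, 4.69, and 4.89, with 3 of 5 above every GH female. The log2 ratio was higher in SI by 0.64 in males (exact permutation test, two-sided, p = 0.0079, adjusted p = 0.012 over the 3 ratios), by 0.36 in females (exact p = 0.071, adjusted p = 0.21), and by 0.50 over both sexes, with housing permuted within each sex (exact p = 0.00082, adjusted p = 0.0025). The value of 0.0079 is the smallest p that 5 rats against 5 allow. Leaving out each rat in turn kept the difference in the log2 ratio over both sexes between 0.46 and 0.56. Its adjusted p-values were 0.00057 to 0.0059 by the exact permutation test.

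The ratio of the arms of miR-9a moved the same way. miR-9a-5p outnumbered miR-9a-3p by a median of 3.98-fold, with 3.998, 3.96, 3.72, 3.25, and 2.72 in GH males and 5.84, 5.27, 4.08, 5.72, and 4.59 in SI males, again with every SI male above every GH male. In GH females the ratio was 3.80, 3.09, 2.29, 4.30, and 2.86, and in SI females 3.23, 2.72, 4.07, 4.74, and 11.3. The females overlapped, and the highest value was that of SI female 16. The log2 ratio was higher in SI by 0.53 in males (exact permutation test, p = 0.0079, adjusted p = 0.012), by 0.51 in females (exact p = 0.24, adjusted p = 0.36), and by 0.52 over both sexes (exact p = 0.0097, adjusted p = 0.015). Leaving out each rat in turn gave 0.36 to 0.61 over both sexes, with an adjusted p of at most 0.045 by the exact permutation test, and without SI female 16 the difference in females was 0.18. With the SI rats numbered 17 exchanged, the difference in males was 0.59 for miR-9a-5p to miR-124-3p (exact permutation test, adjusted p = 0.036) and 0.43 for miR-9a-5p to miR-9a-3p (exact permutation test, adjusted p = 0.024), and with both left out it was 0.72 and 0.49. Both of these ratios have miR-9a-5p on top, so they are not independent, and whether the difference between SI and GH differed between the sexes was not tested. Ratios of other miRNAs were not computed. The summed vascular markers were lower in all SI males than in all GH males, as given above, and their part in the ratios was not tested.

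The arms of miR-124 were far more unequal, with a median of 876 reads of miR-124-3p for each read of miR-124-5p and a range of 348 to 3038. The log2 ratio was 9.55 ± 0.38 in GH males, 10.16 ± 1.05 in SI males, 9.49 ± 0.54 in GH females, and 9.40 ± 0.82 in SI females (SD, n = 5). Only 1 SI male was not above all GH males. The ratio differed between SI and GH by 0.26 over both sexes (exact permutation test, p = 0.44, adjusted p = 0.44). The highest value, 11.57, was that of SI male 17, which had 28 reads of miR-124-5p, and with both rats numbered 17 left out the difference was -0.05.

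**Figure D3:**
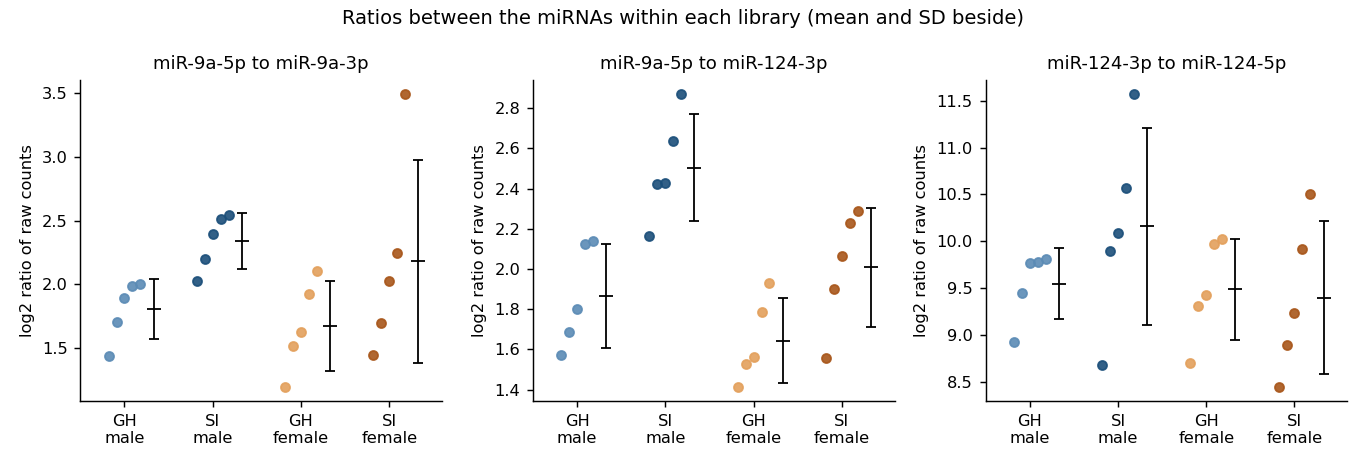
Log2 ratio of the raw counts of a pair of miRNAs within each library (y axis) in the 4 groups (x axis), with 1 point per rat and the mean and SD of 5 rats beside the points. For miR-9a-5p to miR-9a-3p and miR-9a-5p to miR-124-3p all 5 SI males lie above all 5 GH males, and for miR-124-3p to miR-124-5p the groups overlap.

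The isomiR make-up was compared between SI and GH for 6 kinds of reads in each of the 4 miRNAs, 24 shares in all. A read can belong to several kinds at the same time, and the shares of a miRNA are not independent of each other. Over both sexes 4 shares passed an adjusted p of 0.05, with adjusted p-values of 0.044 to 0.050, 3 of them in miR-124-3p, and within males and within females none passed, where 5 and 4 shares had an unadjusted p under 0.05. Over both sexes, miR-124-3p had fewer reads of the exact reference form in SI rats. It also had more with a shorter 3' end and more with added nucleotides. Its reference form held 2.81% ± 0.44 of reads in GH males and 2.54% ± 0.54 in SI males, and 3.88% ± 0.86 in GH females and 2.25% ± 0.59 in SI females (SD, n = 5), a difference over both sexes of -0.95 percentage points (exact permutation test, p = 0.0047, adjusted p = 0.044). By rat it was 3.27%, 3.47%, 4.13%, 3.23%, and 5.28% in the GH females and 2.75%, 2.67%, 2.33%, 2.19%, and 1.28% in the SI females. The males overlapped, with a difference of -0.26 percentage points (exact permutation test, p = 0.45). The females did not overlap (exact permutation p = 0.0079, adjusted p = 0.063 over the 24 shares in females). Shares of miRNAs other than the 4 were not computed, so whether such a separation is particular to miR-124-3p was not tested.

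Reads of miR-124-3p with a shorter 3' end held 91.9% ± 1.48 in GH males, 92.9% ± 0.94 in SI males, 88.8% ± 2.91 in GH females, and 93.3% ± 1.35 in SI females (SD, n = 5). The difference over both sexes was 2.74 percentage points (exact permutation test, p = 0.0022, adjusted p = 0.044). In females, which did not overlap, it was 4.51 percentage points (exact permutation test, p = 0.0079, adjusted p = 0.063). In males it was 0.96 percentage points (exact permutation test, p = 0.27). Reads with added nucleotides held 9.90% ± 1.17 in GH males, 13.5% ± 2.17 in SI males, 9.31% ± 1.35 in GH females, and 11.2% ± 2.30 in SI females (SD, n = 5), a difference of 2.73 percentage points over both sexes (exact permutation test, p = 0.0055, adjusted p = 0.044). For added nucleotides the difference was 3.63 percentage points in males (exact permutation test, p = 0.032, adjusted p = 0.19). In females it was 1.84 percentage points (exact permutation test, p = 0.17). Of the SI males, 4 of 5 were above every GH male in this share. Its adjusted p over both sexes was 0.060 with the SI rats numbered 17 exchanged (exact permutation test). Reads of miR-124-3p with a changed 5' end were 2.56 percentage points more frequent in SI over both sexes (exact permutation test, p = 0.010, adjusted p = 0.0503). They held 42.3% ± 2.64 in GH females and 46.6% ± 0.75 in SI females. In males the difference was 0.83 percentage points (exact permutation test, p = 0.49). Over both sexes the adjusted p was 0.039 among reads without a mismatch, for which 20 shares were tested (exact permutation test).

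**Figure D4:**
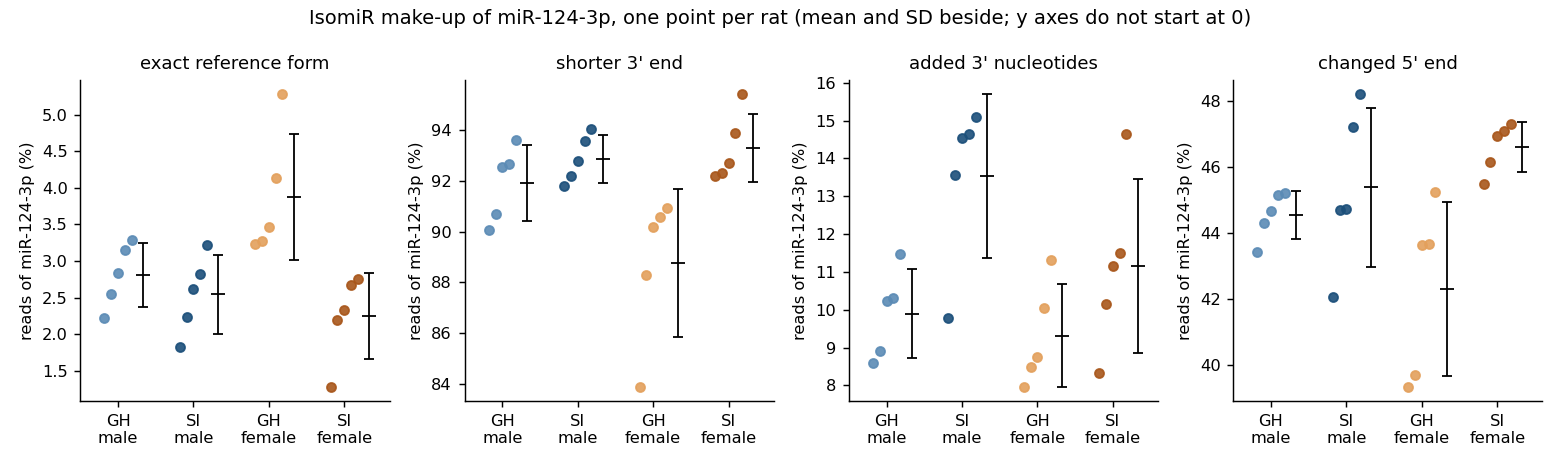
Share of the reads of miR-124-3p (y axes, percent, not starting at 0) in 4 classes, by group (x axis), with 1 point per rat and the mean and SD of 5 rats beside the points. The SI females have less of the reference form, more reads with a shorter 3' end, and more with a changed 5' end than every GH female, and 4 of 5 SI males have more added nucleotides than every GH male.

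The other share that passed was the exact reference form of miR-124-5p, with 36.5% ± 14.4 in GH males, 17.7% ± 13.6 in SI males, 49.1% ± 12.2 in GH females, and 28.8% ± 19.2 in SI females (SD, n = 5), a difference of -19.5 percentage points (exact permutation test, p = 0.0083, adjusted p = 0.0497). It rests on few reads. SI male 17 had 0 of 28 reads in this form, and SI female 16 also had 0. The shares that passed were close to the threshold, and none passed when GH male 16, 20, or 21, SI male 15, GH female 15, 16, or 17, or SI female 12 or 16 was left out, which made 9 of the 20 rats.

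Tested as single isomiRs, 555 forms of the 4 miRNAs were among the 10290 isomiRs that met the same minimum as the miRNAs. In males none of the 555 passed an adjusted p of 0.05 (edgeR), where 0.00972% of all isomiRs did, with 40 of the 555 under an unadjusted p of 0.05. DESeq2 gave 100 of the 555 an adjusted p and called 2 of them, against 8.26% of all isomiRs with one. In females none passed, where 0% of all isomiRs did, with 18 under an unadjusted p of 0.05, and DESeq2 called 2 of 100, against 5.47% of all isomiRs with an adjusted p. Averaged over the sexes 1 of the 555 passed, where 0.253% of all isomiRs did, and DESeq2 called 12 (2.16%), against 4.11% of all isomiRs. The form that edgeR called was one of miR-124-3p that began 1 base upstream, ended at the annotated base, and had a mismatch at its first base, with 0 to 37 reads in a library and a log2 fold change of -3.44 ± 0.70 (adjusted p = 0.047, edgeR), and it did not pass with the 2 SI rats numbered 17 exchanged. With at least 10 counts in every library, 10 of 151 forms passed (6.62%), against 12.5% of the 2405 isomiRs tested. With DESeq2 and with this minimum, the share of the forms called was below that of all isomiRs, and that difference was not tested.

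The next lowest adjusted p-values among the forms of miR-124-3p were 0.083 for a form with an added G and for one extended by 1 base at both ends, with log2 fold changes of -2.37 ± 0.61 and -1.18 ± 0.31 averaged over the sexes (edgeR). Among the forms of miR-9a-5p the lowest was 0.12, for the reference form with an added UU tail, at -0.83 ± 0.25 (edgeR), and among those of miR-9a-3p 0.14, for a mismatched form with 0 to 31 reads (edgeR). Of the 147 forms of miR-124-3p tested, 128 had a negative log2 fold change averaged over the sexes, with a median of -0.69, and of the 134 of miR-9a-3p 123 did, with a median of -0.58. Of the 269 of miR-9a-5p 178 did, with a median of -0.14. Of all 10290 isomiRs, which met the same minimum, 5655 did, with a median of -0.09. Whether the forms of these miRNAs were negative more often than all isomiRs was not tested, nor was the part of the minimum in these counts. Forms of a miRNA share its level and are not independent of each other.

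By the correlation of log2 CPM centred on the group means over 20 libraries, given as a description, the miRNAs most like miR-9a-5p were miR-26a-5p (r = 0.91), miR-218a-5p (r = 0.91), and miR-369-3p (r = 0.90). miR-369-3p was also the first for miR-9a-3p (r = 0.95), ahead of miR-335 (r = 0.94) and miR-99a-5p (r = 0.93), and for miR-124-3p (r = 0.91), ahead of miR-410-3p and miR-146b-5p (both r = 0.89). SI female 16 shaped these values and their order. Without it r was 0.77 to 0.90 for the same pairs, miR-369-3p ranked 2 for both miR-9a-3p and miR-124-3p and 7 for miR-9a-5p, and miR-99a-5p ranked 13 for miR-9a-3p, while miR-26a-5p kept rank 1 for miR-9a-5p. miR-124-5p was nearest to miR-337-5p (r = 0.75), miR-673-5p (r = 0.70), and miR-10a-5p (r = 0.64), which ranked 3, 7, and 20 without that library. Libraries share depth and normalization across all of these pairs.

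Other neuron-enriched miRNAs, a list of 14 with no member of the 4, did not move in 1 direction. In males none of the 14 passed, in females miR-153-3p was lower in SI, and averaged over the sexes miR-129-5p (0.46 ± 0.15, log2 fold change ± SE), miR-134-5p (0.59 ± 0.16), and miR-382-5p (0.45 ± 0.13) were higher and miR-153-3p (-1.66 ± 0.35) was lower, with adjusted p-values of 0.0044 to 0.040 (edgeR). The most counted of the list, miR-128-3p, did not pass, with 0.13 ± 0.22 in males and 0.33 ± 0.22 in females. Of all 500 miRNAs tested, 17.6% passed averaged over the sexes, 4% in males, and 0.4% in females. Of the vascular list, miR-143-3p was lower in SI males (-1.15 ± 0.33, adjusted p = 0.045, edgeR), and averaged over the sexes miR-143-3p (-0.99 ± 0.23) and miR-126a-3p (-1.11 ± 0.28) were lower, with adjusted p-values of 0.0059 and 0.011 (edgeR). miR-338-3p of the oligodendrocyte list was lower averaged over the sexes (-1.74 ± 0.48, adjusted p = 0.016, edgeR), and miR-219a-2-3p, which held most of that list's counts, was at 0.30 ± 0.19 averaged, 0.45 ± 0.27 in males, and 0.15 ± 0.27 in females, and did not pass.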

How the data were processed

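Small RNA libraries of adBNST punches from 20 rats were analysed, 5 in each group of housing and sex, as the labels give them. The authors trimmed adapters with cutadapt, used seqbuster to align the reads to miRBase v21, and listed every distinct sequence with its miRNA, mismatch, added nucleotides, and end changes. The deposited values are raw read counts, 2 or higher. Trimming of polyA could shorten A tails, and sequences read 1 time are not listed, which bears most on the rare miR-124-5p. The tool versions are not given in the sources used here.

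Counts were summed per miRNA and per isomiR, and features with at least 10 counts in at least 5 libraries were tested with edgeR 4.0.16 in R 4.3.3 (quasi-likelihood F test, TMM, 1 model of 4 groups, Benjamini-Hochberg adjustment over all features, threshold 0.05). DESeq2 1.42.0 was an alternative. Ratios and shares were compared by exact two-sided permutation of housing within each sex, with Benjamini-Hochberg adjustment over 3 ratios or 24 shares, in Python 3.11.15. Scripts were tested on simulated data. Total counts were 3436585 to 11406397 per library. All pairs of libraries differed by more than sampling noise (chi-square per degree of freedom of at least 74.6). Reads carry PCR copies, so counting error understates the error between molecules, and p-values measure the spread between these rats.

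Named are the 4 miRNAs, any with the same seed, the 3 nearest by correlation for each, the 3 most counted isomiRs, the isomiRs of lowest adjusted p averaged over the sexes (at most 3), and markers past the threshold or most counted. The 4 miRNAs and the lists were chosen with earlier results of these data known. Forms of miR-124-5p and the remaining isomiRs that this rule names had adjusted p-values of 0.16 to 0.81 (edgeR). Alternatives were other size factors and filters, only the groups compared, reads of a single miRNA or without a mismatch, each rat left out, the rats numbered 17 exchanged, and a block for shared animal numbers. Same-numbered GH and SI rats of a sex had correlated deviations of -0.30 to 0.09 over 5 pairs, so the numbers were not taken as pairs.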

Additional observations from a re-analysis of the deposited data

Results flagged for a closer look

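In groups of 5 rats, 11 values lay further from the nearest other rat than Dixon's criterion allows at 95% over the levels, ratios, and shares, which is 8.87% of the groups checked. Chance flags about 1 in 20 groups (5%). Of these values 5 belong to miR-124-5p, whose shares rest on 28 to 302 reads.

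SI female 16 differed in the ends of miR-9a-3p. Reads with a shorter 3' end were 7.40% in this rat against 4.10% to 4.45% in the other SI females, and reads with a changed 5' end were 25.1% against 32.96% to 35.97%. SI male 17 had miR-9a-5p at 15.66 log2 CPM against 16.32 to 16.54 in the other SI males. SI male 22 had added nucleotides on 9.78% of its miR-124-3p reads against 13.6% to 15.1%. For miR-9a-5p, GH male 19 had a shorter 3' end in 57.1% of reads against 60.5% to 61.7%, and SI male 19 had a changed 5' end in 5.99% against 6.75% to 7.05%.

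For miR-124-5p, SI female 14 had a changed 5' end in 26.7% of reads against at most 3.68% in the other SI females, and SI female 10 had added nucleotides on 53.2% against at most 16.9%. Mismatched reads of miR-124-5p were found in 1 rat of a group and in none of the others of that group in 3 cases, at 6.25% in GH male 19, 0.855% in GH female 12, and 1.81% in SI female 12.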

How the results depend on the processing

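The wider ratios of miR-9a-5p to miR-124-3p and to miR-9a-3p over both sexes kept their direction in every alternative run and passed in all but the block below. The change of miR-124-3p and the shares of isomiRs lay near the threshold. With DESeq2 size factors the interaction had 0 calls. The DESeq2 test called 47 miRNAs in males, 66 in females, 4 for the interaction, and 3 between the sexes in GH, with miR-124-3p at -0.42 averaged over the sexes. It called 157, 104, and 422 isomiRs in males, in females, and averaged, of which 2, 2, and 12 were of the 4 miRNAs. With at least 10 counts in every library 40 miRNAs passed in males and 40 in females, miR-124-3p was at -0.43 averaged, and 34, 1, and 301 isomiRs passed, 10 of them of the 4 miRNAs averaged over the sexes. With only the groups compared, 84 miRNAs passed in males and 0 in females, and miR-124-3p in males was at -0.65. With the SI rats numbered 17 exchanged, 11, 5, and 0 miRNAs passed in males, in females, and for the interaction. In that setting 0 isomiRs passed in males and 5 averaged, with 0 of the 4 miRNAs, and 2 shares passed. The difference between SI and GH in the log2 ratio of miR-124-3p to miR-124-5p turned to 0.13 in females. Leaving out both rats numbered 17 was an alternative chosen after seeing the data. With both out, 13, 0, 50, and 1 miRNAs passed in males, in females, averaged, and for the interaction. The log2 fold change of miR-124-5p in females turned to 0.088. The difference in the log2 ratio of miR-124-3p to miR-124-5p over both sexes turned to -0.051. The cause was not tested.

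With a block for the 5 pairs of shared animal numbers, 0 miRNAs passed in males and 0 in females. No share passed (0 of 24), and miR-9a-5p in females was at -0.10. The log2 ratios differed between SI and GH by 0.87 for miR-9a-5p to miR-9a-3p and 0.77 for miR-9a-5p to miR-124-3p. For miR-124-3p to miR-124-5p the difference was -0.36. The sign-flip test of the ratios and shares over 5 pairs cannot give a p under 0.0625, a limit that edgeR's block does not have. In the same 10 rats without the block 0 and 55 miRNAs passed in males and females, and miR-9a-5p in females was at -0.0053. The correlations of same-numbered rats were -0.30 to 0.09, and so few pairs cannot show whether these rats shared more than a number.

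Leaving out each rat in turn gave 7 to 73 miRNAs in males (7 without SI male 15, 73 without SI female 16), 1 to 63 in females (63 without SI female 10), 58 to 117 averaged (117 without SI female 10), and 0 to 2 for the interaction. In males, miR-9a-5p was at -0.036 to 0.13 and miR-124-3p at -0.73 to -0.53. In females, miR-124-3p was at -0.36 to 0.022 and miR-9a-3p at -0.36 to 0.13, both above 0 without SI female 16, and miR-124-5p at -0.33 to 0.088. Averaged over the sexes miR-124-3p was at -0.51 to -0.32. Between the sexes in GH, miR-124-3p was at -0.16 to 0.041 and miR-124-5p at -0.10 to 0.18. The difference between SI and GH in the log2 ratio of miR-124-3p to miR-124-5p was 0.26 to 0.98 in males. In females it was -0.36 to 0.15. Over both sexes 0 to 7 shares passed. Without SI female 16, 46 isomiRs passed in males and 75 averaged. At 28 to 302 reads a library, depth limits every value of miR-124-5p.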
